A study of Saccharomyces cerevisiae with 94 samples.

Results

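The ribosomal stalk P protein genes of budding yeast, RPP0, RPP1A, RPP1B, RPP2A and RPP2B, were followed here by direct RNA sequencing, in which a nanopore reads whole mRNA molecules together with their pA-tails. The genes were taken by name among the transcripts of the class ORFS. All 5 were found, out of 5880 mRNAs with a gene name or locus of their own in tables of 13186 features. The stalk is a flexible arm on the large ribosomal subunit that recruits the GTPases of translation. RPP0 encodes its base protein, uL10, which is anchored on the ribosomal RNA beside uL11 and carries the acidic P1 and P2 proteins as heterodimers. P1α and P1β come from RPP1A and RPP1B, and P2α and P2β from RPP2A and RPP2B. RPP0 is essential in yeast, whereas cells without the acidic proteins are viable. All P proteins end in the same short motif, which contacts elongation factors and activates the stress kinase Gcn2. Genes for ribosomal proteins are transcribed heavily in growing yeast and are repressed by heat and other stresses.

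Every library came from Saccharomyces cerevisiae that the labels give as strain W303. In the Mex67-AA chase, the nuclear export factor Mex67 of an Anchor-Away strain grown at 25 °C was trapped with 1 µg/ml rapamycin for 0 to 30 min, in 17 libraries of replicates A, B and C. That strain carried tor1-1, a disrupted FPR1 and an anchor fused to the ribosomal protein Rpl13 in the control as well, so every Mex67-AA library shared these alleles. In the heat stress chase, wild-type (WT) cells at 25 °C were mixed with hot medium to reach 37 °C and sampled from 0 to 20 min, in 18 libraries of replicates A, B and D. In the thiolutin chase, WT cells at 25 °C received 4 µg/ml of this transcription inhibitor for 0 to 60 min, in 8 libraries of replicate A, 1 for each time. A replicate B of this chase is represented by a single column over all its times and was not used here.

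The remaining values were for strains or RNA at single states. Their treatment labels give 25 °C unless stated, but the table headings of the WT, ccr4 and pan2 pools read 30 °C, as does the study's list for these, the pop2 deletion and the WT RNA treated with Xrn1, so the temperature of these samples is not settled. They comprised 10 pools of libraries made by the authors and 3 single libraries. The pools were WT, ccr4 deletion and pan2 deletion; Dcp2-AID, Xrn1-AID and WT after 2 h of the auxin analogue 1-NAA; Pab1-AID with auxin for 0, 1 or 2 h; and Mex67-AA with rapamycin for 16 min at 37 °C by its label. The study describes rapamycin as added shortly before the shift to 37 °C, so the time in heat was shorter than that. The single libraries were a pop2 deletion and WT RNA before and after digestion with Xrn1. The digested RNA also appears in a second table under the same label, with 1180998 reads against 826133. Both entries are among the 57 libraries or pools counted below. AID strains carry a degron that directs the tagged protein to degradation when auxin is added and the plant receptor OsTIR1 is present. Per the study's strain list, the AID strains carried OsTIR1, which the list does not give for WT. Xrn1-AID and Pab1-AID had the tor1-1, FPR1 and Rpl13 anchor alleles as well, and Pab1-AID also held Mex67-AA.

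Abundance is given as RPM, reads per 1000000 reads of the library without ENO2, a transcript that was in part a synthetic spike-in. RPM is a share of pA+ RNA, so fewer molecules of an mRNA and more of the others cannot be told apart. Library totals without ENO2 were 188519 to 2184459 reads in the Mex67-AA chase, 25838 to 668505 in the heat stress chase, 320726 to 777753 in the thiolutin chase and 978487 to 5485510 in the pools. The lowest total was that of heat stress replicate D at 4 min. Tail length is given in adenosines (As). The labels were checked with the targeted genes. PAN2 mRNA was at 0.692 RPM in the pan2 deletion pool and 32.1 in WT, CCR4 at 4.26 and 30.1 RPM, and POP2 at 2.87 and 59.3. DCP2 was at 8.18 RPM in Dcp2-AID and 87.8 in WT, and XRN1, listed as KEM1, at 11.8 and 149. PAB1 mRNA was at 23.1, 30.7 and 39.9 RPM after 0, 1 and 2 h of auxin, which does not test the degron because it acts on the protein. The heat shock genes HSP26, HSP42, HSP104 and SSA4 rose 4 of 4 in heat stress, with a median log2 change of 8.01 at 14 to 16 min.

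The common end of the P proteins was visible in the coding sequences. The last 42 coding bases are shown, 5′ to 3′ with the stop codon in capitals, because they are the part that all members share and the part nearest to the pA-tail where a direct RNA read begins. They were taken from the RefSeq annotation of assembly R64.
RPP0: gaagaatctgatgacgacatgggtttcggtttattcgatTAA
RPP1A: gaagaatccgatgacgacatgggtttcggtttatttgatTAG
RPP1B: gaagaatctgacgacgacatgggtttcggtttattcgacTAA
RPP2A: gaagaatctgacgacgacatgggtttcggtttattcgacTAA
RPP2B: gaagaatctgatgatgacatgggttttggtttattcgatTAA

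These stretches lie at chrXII:806784-806825 on the plus strand for RPP0, chrIV:309802-309843 on the minus strand for RPP1A, chrIV:230486-230527 on the plus strand for RPP1B, chrXV:254576-254617 on the plus strand for RPP2A and chrIV:1239783-1239824 on the plus strand for RPP2B. Any pair shared 37 to 42 of the 42 bases, and RPP1B and RPP2A shared all 42. Identity over the whole coding sequence was lower. It was 69.2% between RPP1A and RPP1B, 73.6% between RPP2A and RPP2B, and 27.9% to 28.6% between RPP0, with 939 coding bases, and the other members, with 321 to 333. RPP1B has the only intron, of 301 bases at chrIV:230020-230320. The transcripts of the tables ran 70 bases past the stop codon for RPP0, 85 for RPP1A, 98 for RPP1B, 249 for RPP2A and 149 for RPP2B. A read that started at the pA-tail therefore crossed these 3′ bases before the shared end. Their sequences were not compared between the members. Noncoding or neighbouring features overlapped RPP0, RPP1A and RPP2B, and held at most 2.27% of the combined reads in any of the 57 libraries or pools.

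Of the promoter elements of ribosomal protein genes, the Rap1-type motif ACCCNNACA was searched on both strands of the 500 bases before the start codon. It was present in RPP1B alone among the 5 genes, in 5.47% of 6000 genes and in 40.2% of 132 other ribosomal protein genes. The match, in capitals with its flanks, lay 265 bases before the RPP1B start codon at chrIV:229624-229648, plus strand.
RPP1B: tcctttaaACCCATACAtatcttac

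With new export blocked in the Mex67-AA chase, all 5 stalk mRNAs took a larger share of the reads over time, RPP0 most, while the typical feature lost share. RPP0 was at 7217, 8096 and 6151 RPM at 0 min in replicates A, B and C. It rose through 8132, 10118, 10898 and 10453 RPM at 8, 12, 14 and 16 min to 14800 at 30 min in replicate A. In replicate B it passed 8317, 9722, 10052 and 10506 RPM at 4, 10, 12 and 14 min to reach 13104 at 20 min, and in replicate C it passed 8238, 10154 and 14727 RPM at 4, 8 and 16 min to reach 19970 at 30 min. Every later library lay above its own control, and replicate C rose furthest.

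At 12 to 16 min the RPP0 log2 change was 0.65 (SE 0.12, adjusted p = 0.000135, edgeR quasi-likelihood test with Benjamini-Hochberg adjustment over all features), and at 20 to 30 min it was 1.13 (SE 0.14, adjusted p = 1.23e-06). The 4 acidic protein mRNAs rose less. At 12 to 16 min their log2 changes were 0.25 for RPP1A, 0.22 for RPP1B, 0.34 for RPP2A and 0.24 for RPP2B, with edgeR adjusted p of 0.0133, 0.0317, 0.00442 and 0.0250. At 20 to 30 min they were 0.46, 0.37, 0.48 and 0.53. All 5 members thus rose in both windows, where 2.94% and 4.63% of the 4256 features tested did, and the median feature changed by -1.11 and -1.59. Of 122 other cytosolic ribosomal protein genes, 34 rose and 10 fell in the earlier window and 47 rose and 25 fell in the later, with medians of 0.15 and 0.16. RPP0 rose more than 121 of these 122 genes at 12 to 16 min and more than all 122 at 20 to 30 min. In each of the 3 replicates the acidic protein mRNAs rose less than RPP0, by 0.05 to 1.20 on the log2 scale in the earlier window and by 0.13 to 1.47 in the later.

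The acidic protein mRNAs differed in their course. RPP2B was at 6937, 7168 and 8144 RPM at 0 min in replicates A, B and C and at 10778, 9421 and 11883 RPM in the last library of each. RPP1A went from 6331, 6877 and 8258 RPM to 9180, 9452 and 10858, and RPP1B from 6634, 5961 and 8025 RPM to 8291, 8820 and 9425. RPP2A went from 5003, 5007 and 4661 RPM to 7027, 7385 and 6065. In every one of these 12 pairs the last library was above the control, although in replicate C all 4 mRNAs were below their control at 4 min, and RPP1A, RPP1B and RPP2A were still below it at 8 min. The calls of the earlier window were the less stable ones. Without replicate A 1 member passed the test there and without replicate B 2 did, against at least 4 in the later window without any replicate. Over all features, 33 to 127 were called higher in the earlier window and 101 to 179 in the later when a replicate was left out. In the earlier window 2 members passed without the replicate block and 3 with ENO2 kept in the totals, although replicate C holds 0 ENO2 reads, so that setting mixes libraries with and without them.

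**Figure D1:**
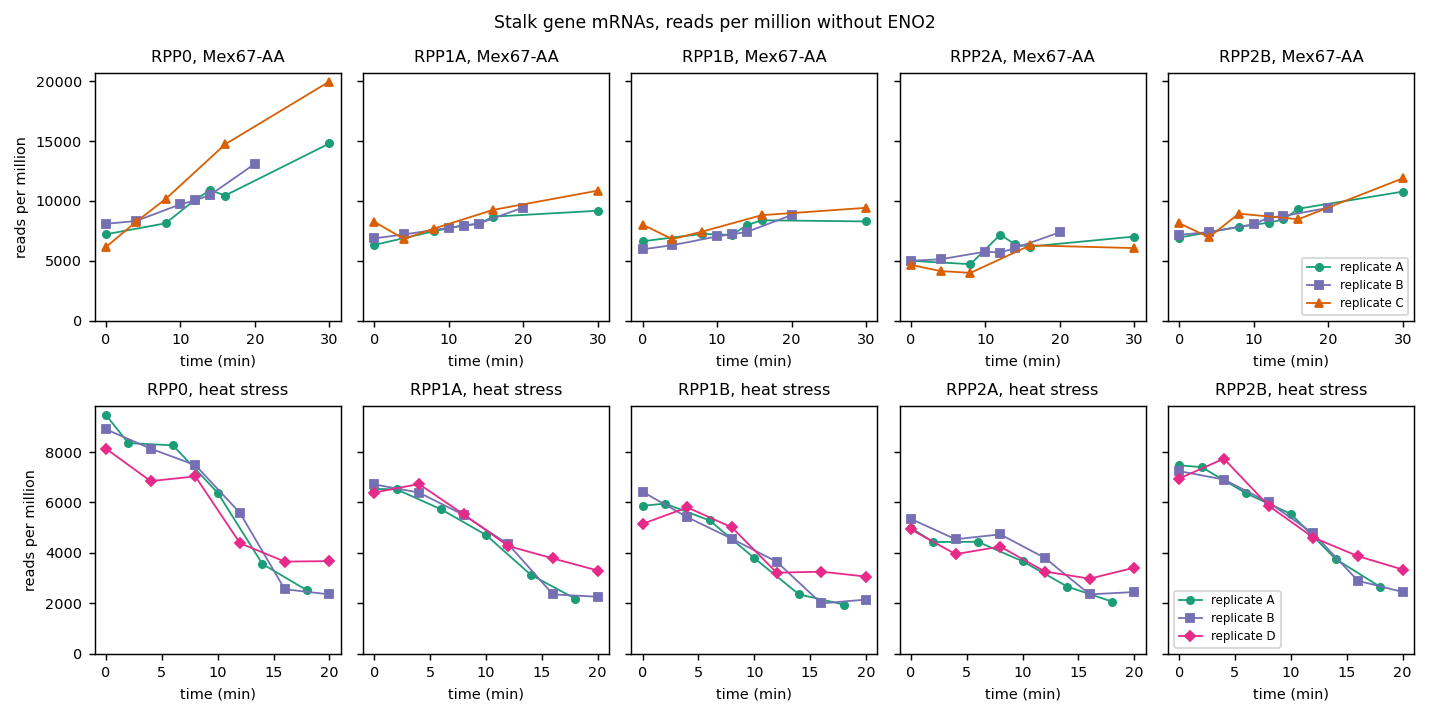
RPM (without ENO2) of each stalk gene against time in min, in the Mex67-AA chase (upper row, replicates A, B and C) and in the heat stress chase (lower row, replicates A, B and D), 1 point for each library and 1 line for each replicate. RPP0 climbed to 13104 to 19970 RPM at 20 to 30 min in the Mex67-AA chase, and every member fell in heat stress after 8 min.

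Scaling moved the split of all features, and the members were higher under each scaling. With TMM or RLE factors the median feature changed by -0.26 and -0.34 at 12 to 16 min, and the members by 1.00 to 1.52. The share of higher features among all those called was then 41.0% (TMM) and 37.0% (RLE), against 4.31% with library totals. At 20 to 30 min it was 42% and 43.2% against 6.02%, and the members changed by 1.64 to 2.43.

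Tails of the stalk mRNAs shortened during the same chase. The RPP0 mean tail was 30.1, 29.0 and 25.5 As at 0 min in replicates A, B and C and 21.7, 24.0 and 20.2 As in the last library of each. RPP1A went from 25.7, 23.7 and 26 As to 18.6, 20.0 and 17.8, and RPP1B from 27.7, 26.4 and 24.1 As to 21.9, 23.1 and 18.7. RPP2A went from 29.3, 27.6 and 25.4 As to 19.7, 22.2 and 18.3, and RPP2B from 26.1, 25.4 and 27.4 As to 19.6, 20.8 and 19.4. For each gene the last libraries lay below all of the controls, a separation that was not counted over other mRNAs. At 8 min replicate C had longer tails than its own control for RPP0, RPP1B and RPP2A (28.2, 26.5 and 26.3 As). In replicate A all 5 were shorter than the control at that time.

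The fitted mean tail at 12 to 16 min changed by -4.07 As for RPP0, -3.81 for RPP1A, -2.86 for RPP1B, -4.67 for RPP2A and -4.0 for RPP2B, with limma adjusted p from 0.00419 to 0.0404. At 20 to 30 min it changed by -6.25, -6.34, -4.81, -7.36 and -6.40 As, with adjusted p from 0.000464 to 0.00571. All 5 were called shorter in both windows, where 66.5% and 51.6% of the 1994 mRNAs tested were, and where 118 and 112 of 120 other ribosomal protein mRNAs were. The RPP1B shortening at 12 to 16 min was smaller than that of each of those 120 mRNAs, whose median was -5.04 As. Without replicate A, 0 members passed at 12 to 16 min and 3 at 20 to 30 min. Over all mRNAs, 252 to 1380 and 632 to 1052 were called shorter in these windows when a replicate was left out.

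**Figure D2:**
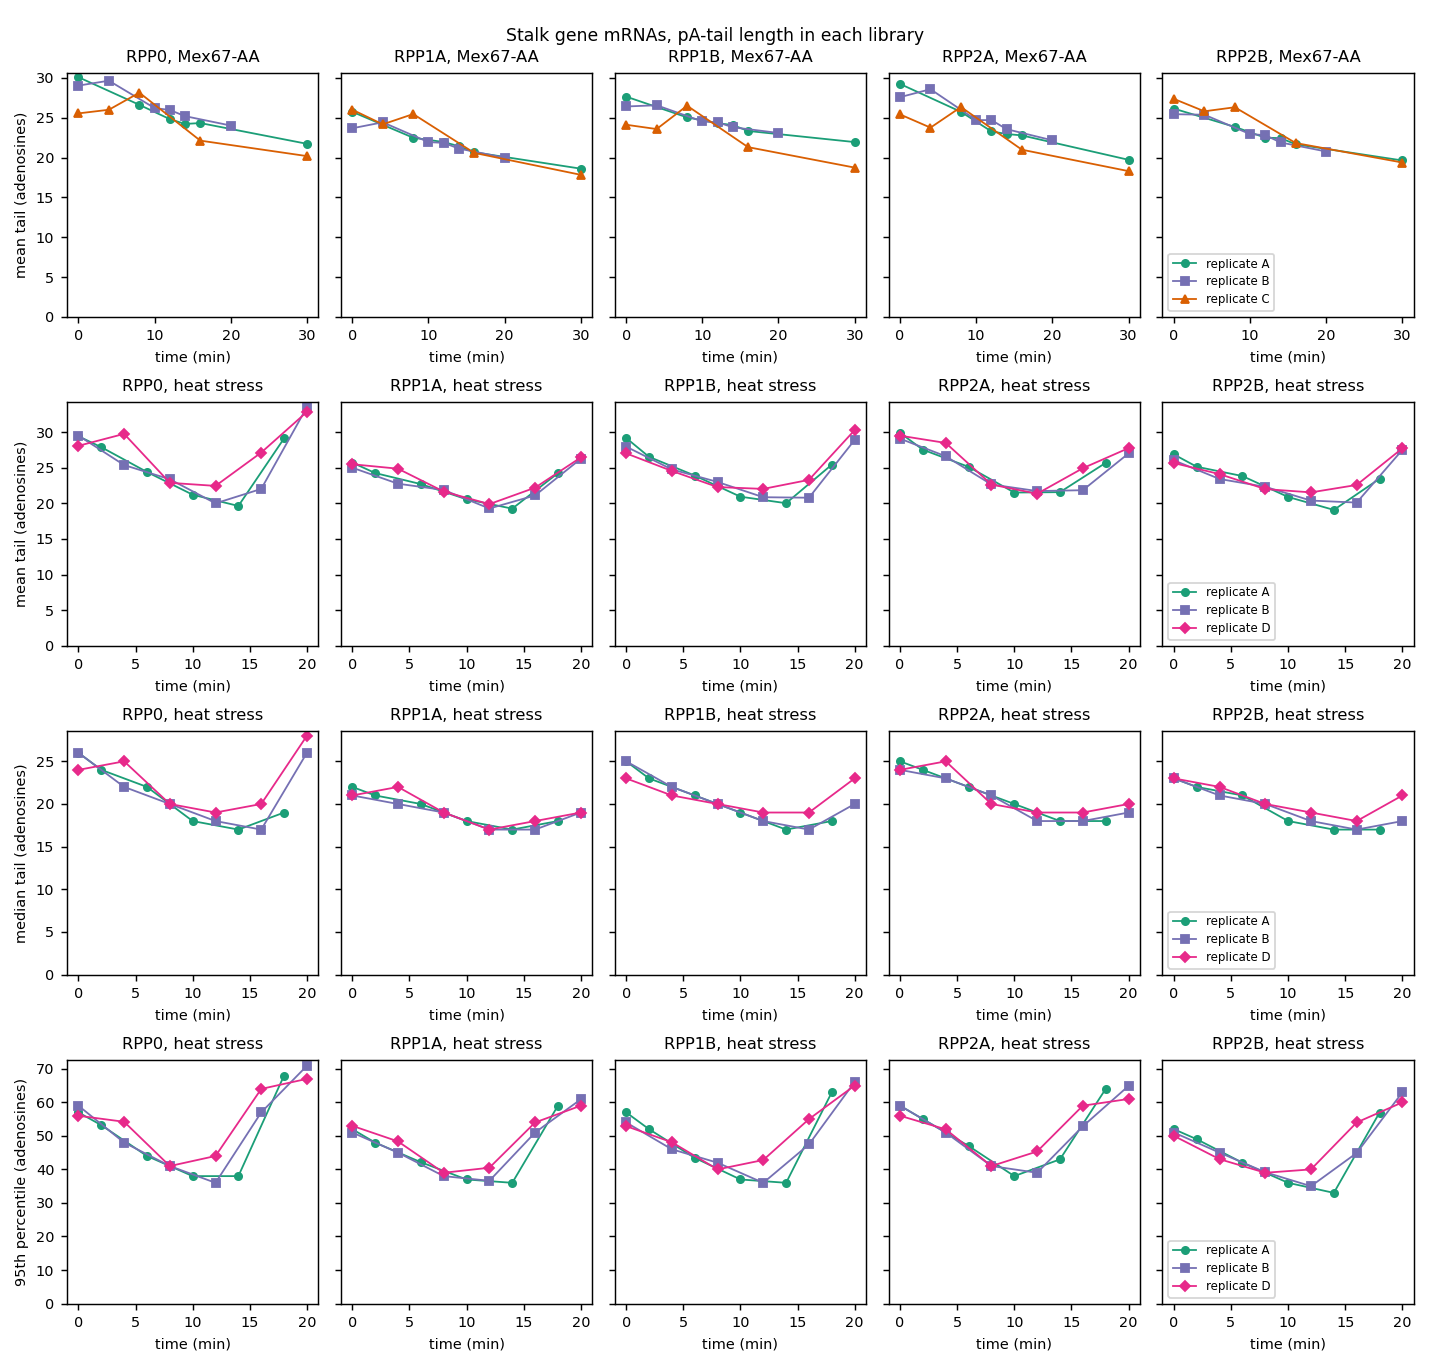
Mean pA-tail length in As of each stalk gene against time in min in the Mex67-AA chase (top row), and mean, median and 95th percentile of tail length in the heat stress chase (lower rows), 1 line for each replicate. In the last heat stress libraries the 95th percentile was above the control for every gene, whereas the median stayed at or below it except for RPP0 in replicate D.

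In heat stress the stalk mRNAs lost share. RPP0 was at 9475, 8907 and 8137 RPM at 0 min in replicates A, B and D. It was still at 8271, 7485 and 7036 RPM at 6 to 8 min, then at 3559, 2556 and 3653 RPM at 14 to 16 min and at 2507, 2349 and 3671 RPM at 18 to 20 min. The RPP0 values at 0 min and at 14 min or later did not overlap. How many other mRNAs separated in this way was not counted. RPP2A, the mildest case, was at 4995, 5348 and 4929 RPM at 0 min and at 2660, 2351 and 2974 RPM at 14 to 16 min.

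At 6 to 8 min the 5 members were 0.19 to 0.25 lower on the log2 scale and none passed the edgeR test, with 0 of 5 at an unadjusted p under 0.05 and 0 called by DESeq2. At that time 10.4% of 4132 features were called lower, among them 11 of the 122 other ribosomal protein genes. At 14 to 16 min the log2 change was -1.45 for RPP0 (SE 0.18, edgeR adjusted p = 7.39e-07), -1.10 for RPP1A, -1.22 for RPP1B, -0.94 for RPP2A and -1.05 for RPP2B, so that all 5 fell, as did 15.5% of features and 121 of the 122 other ribosomal protein genes (median -1.49). At 18 to 20 min it was -1.63, -1.36, -1.31, -0.96 and -1.37, with 10.9% of features and 117 of those 122 genes lower. All 5 members were called in both windows without any single replicate.

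RPP0 fell further than each of the 4 acidic protein mRNAs in every replicate, by 0.09 to 0.62 on the log2 scale at 14 to 16 min and by 0.09 to 0.79 at 18 to 20 min. RPP0 was the member that rose most in the Mex67-AA chase as well, so it had the highest estimate of the 5 in one chase and the lowest in the other. Between 14 to 16 and 18 to 20 min no feature was called higher or lower by edgeR (0% of 4132, with 588 at an unadjusted p under 0.05 and 5 called lower by DESeq2). RPP2B had the lowest estimate there, -0.31 (SE 0.14, unadjusted p = 0.0312, adjusted p = 0.283), below all 122 other ribosomal protein genes. Scaling again moved the background, and TMM and RLE factors gave members -1.40 to -1.94 at 14 to 16 min. Higher features were 74.2% of those called with library totals and 50.7% and 53.8% with these factors. At 18 to 20 min the shares were 81.2% against 48.6% and 51.4%, and at 6 to 8 min 65.0% against 52.3% and 52.0%.

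Tails of all 5 members were already called shorter at 6 to 8 min, when none was called lower in abundance, and they lengthened again at the end of the chase. The RPP0 mean tail was 29.4, 29.5 and 28.1 As at 0 min in replicates A, B and D and 24.4, 23.4 and 22.9 As at 6 to 8 min. It was 21.2, 20.0 and 22.4 As at 10 to 12 min, 19.6, 22.0 and 27.1 As at 14 to 16 min, and 29.1, 33.5 and 32.8 As at 18 to 20 min. Replicate D had already lengthened at 16 min, and replicate A, sampled at 14 min, had not. Libraries of 1 window were thus taken up to 2 min apart and did not sit at the same stage.

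At 6 to 8 min the fitted mean tail changed by -5.45 As for RPP0, -3.33 for RPP1A, -4.99 for RPP1B, -6.02 for RPP2A and -3.47 for RPP2B (limma adjusted p from 0.0079 to 0.0495). All 5 were called shorter, where 22.3% of 891 mRNAs were. So were 80 of 121 other ribosomal protein mRNAs, with a median of -4.95 As, so the early shortening was shared with that group. At 14 to 16 min the fitted mean tail changed by -6.07, -4.55, -6.68, -6.71 and -5.60 As against 0 min, again with 5 called, where 6.51% of mRNAs and 32 of 121 other ribosomal protein mRNAs were. From there to 18 to 20 min it rose by 8.90, 4.79, 6.84, 4.03 and 5.64 As, with 5 called longer beside 18.7% of mRNAs and 109 of those 121. These calls depended on single replicates. Without replicate B 0 members were called in any of the 3 comparisons, without replicate D 0, 3 and 4 were, and without replicate A 5, 3 and 5. Calls over all mRNAs fell too. With a replicate left out they numbered 0 to 141, 0 to 28 and 41 to 131, against 199, 58 and 167 with all replicates. With median tails 2 members were called shorter at 6 to 8 min and 1 longer from 14 to 16 to 18 to 20 min.

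At 18 to 20 min the mean tails were close to those at the start. Against 0 min the differences were 2.82 As (SE 1.66) for RPP0, 0.24 (SE 1.04) for RPP1A, 0.16 (SE 1.34) for RPP1B, -2.68 (SE 1.17, unadjusted p = 0.0363, adjusted p = 0.119) for RPP2A and 0.05 (SE 1.27) for RPP2B. None passed the limma test in either direction, where 15.7% of mRNAs were longer and 0.673% shorter. Of the 121 other ribosomal protein mRNAs, 48 were longer, the median was 4.03 As, and all 121 lay above RPP2A.

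The upper end of the tail distribution and its median moved apart. The 95th percentile of the RPP0 tail was 56 to 59 As at 0 min, 36 to 44 at 10 to 12 min and 67 to 70.9 at 18 to 20 min. For RPP2A it was 56 to 59 As at the start and 61 to 64.9 at the end, and for every member the 3 end values lay above the 3 start values. The share of other mRNAs with such a separation was not counted, so it is not shown to be particular to the members. The median did not follow. In replicates A, B and D the RPP2A median was 25, 24 and 24 As at 0 min and 18, 19 and 20 at 18 to 20 min, and the RPP2B median 23, 23 and 23 and then 17, 18 and 21. With medians in place of means, the change from 0 to 18 to 20 min was -2.67 As for RPP1A, -4.0 for RPP1B, -5.33 for RPP2A and -4.33 for RPP2B, all 4 called shorter by limma, and -1.0 for RPP0, not called. Over all mRNAs tested, 33 were called shorter with medians and 6 with means. At the end of the chase the acidic protein mRNAs thus had a longer upper end and a shorter median than at the start, except for RPP1B in replicate D, whose median was 23 As at both times.

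The gap between the longest and the shortest mean tail of the 5 was 4.18, 4.51 and 4.01 As at 0 min in replicates A, B and D, 0.940, 2.45 and 2.56 As at 10 to 12 min, and 5.67, 7.26 and 6.40 As at 18 to 20 min. The 3 groups did not overlap. Over all 57 libraries and pools RPP1A had the shortest mean tail in 49 and RPP0 the longest in 37, with RPP2A the longest in 15. The WT RNA digested with Xrn1 enters these counts from both of its tables.

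**Figure D3:**
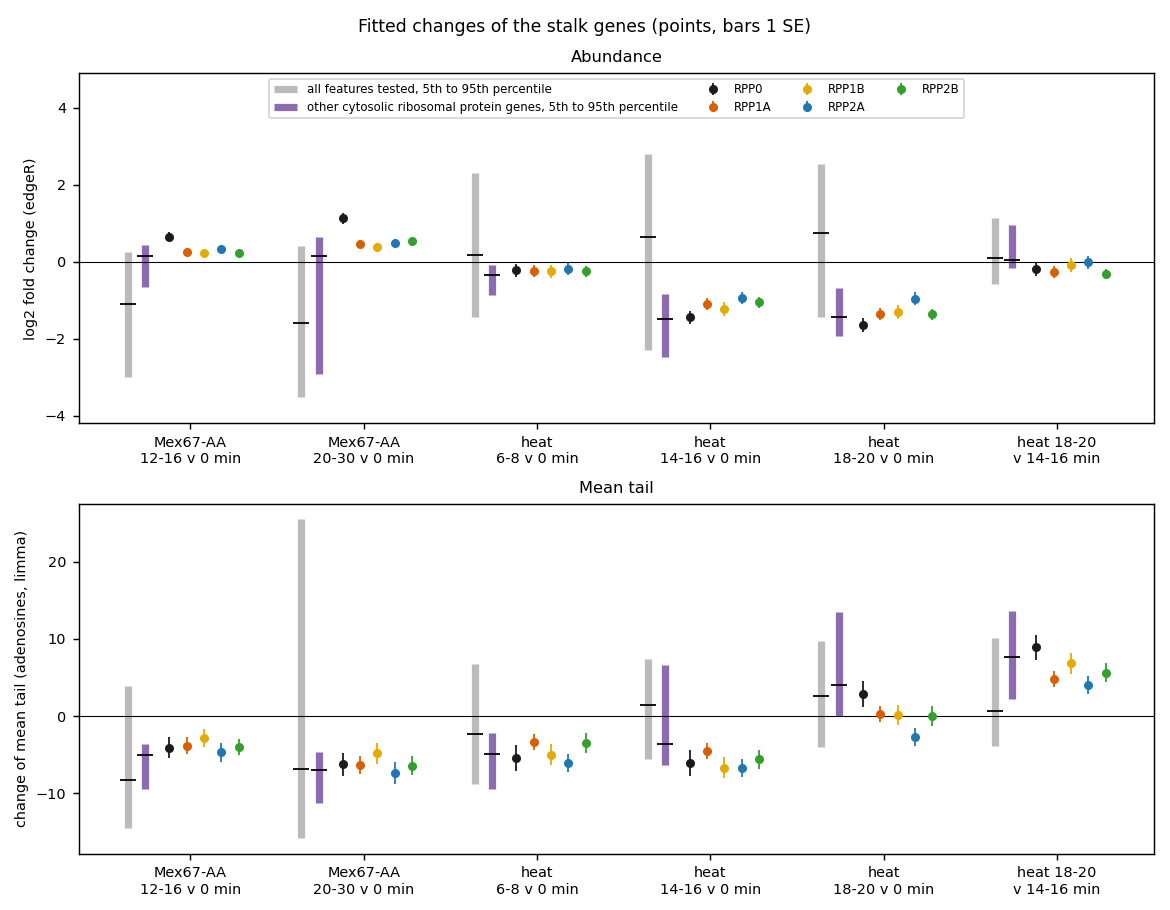
Fitted log2 fold changes of abundance (edgeR, upper panel) and changes of mean tail in As (limma, lower panel) of the 5 stalk genes with bars of 1 SE, beside the 5th to 95th percentile and the median of all features tested and of the other cytosolic ribosomal protein genes. RPP0 stood highest of the members in the Mex67-AA chase and lowest in heat stress from 14 min, and RPP2A was the only member with a negative mean tail change from 0 to 18 to 20 min.

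The test of the difference itself compared the heat stress change at 14 to 16 min with the Mex67-AA change at 12 to 16 min in a single model. The heat change in abundance was lower by 2.10 on the log2 scale for RPP0 (SE 0.23, edgeR adjusted p = 3.51e-09), 1.36 for RPP1A, 1.44 for RPP1B, 1.27 for RPP2A and 1.29 for RPP2B. All 5 passed, where 10.7% of 3806 features were lower and 114 of 121 other ribosomal protein genes were (median -1.61). Strain and treatment differ together between the chases and cannot be told apart. With TMM and RLE factors 52.9% and 67% of called features were higher, against 86.3% with library totals, and the members differed by -3.51 to -2.28. For tails 1 member passed. RPP1B tails shortened by 3.82 As more in heat (SE 1.60, limma adjusted p = 0.0423), where 1.26% of 875 mRNAs were called in that direction. That call was kept without heat stress replicate D and lost without each of the other 5 replicates (0 members called). The other 4 differences ran from -2.04 to -0.74 As and none passed.

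Decay constants were calculated as in the study's methods. Within a replicate, the natural log of the ratio of levels at any 2 times was divided by the minutes that separated them, and constants of 0 or less were left out. In heat stress up to 16 min the constant was 0.0641 ± 0.0080 per min for RPP0 (SD, n = 3), 0.0507 ± 0.0107 for RPP1A, 0.0616 ± 0.0106 for RPP1B, 0.0449 ± 0.0086 for RPP2A and 0.0495 ± 0.0058 for RPP2B. The RPP0 value corresponds to half-lives of 9.51 to 12.1 min in the replicates. In order of the constants, RPP0 and RPP1B, RPP1A and RPP2B, and RPP2B and RPP2A differed by less than their SDs. RPP1B exceeded RPP1A by slightly more than the SD of either. In the Mex67-AA chase the calculation had little to work on, since only 1 of 40 pairs of times gave a positive constant for RPP0, 2 for RPP1A, 4 for RPP1B, 10 for RPP2A and 2 for RPP2B. With all pairs kept the Mex67-AA constants were negative, -0.0392 per min for RPP0 and -0.0108 to -0.0139 for the others.

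In thiolutin the stalk mRNAs held between 0.81 and 1.38 times their starting levels to 16 min and were low at 60 min. The highest value was that of RPP1A at 8 min, 1.38 times, and the lowest to 16 min were those of RPP2A and RPP1B at 16 min, 0.81 and 0.86 times. RPP0 was at 1.04 times its 0 min level after 20 min (95% interval 1.00 to 1.08, exact and of counting error only), 0.467 times after 30 min and 15.9-fold below it after 60 min (13.6 to 18.7). RPP2A was at 0.691, 0.296 and 31.4-fold below (23.6 to 42.7), and RPP1B at 0.695, 0.311 and 25.3-fold below. RPP1A reached 0.714, 0.316 and 14.3-fold below. RPP2B was above its start at 8, 12 and 16 min, with 1.27 times at 16 min, and at 0.918 and 0.663 times after 20 and 30 min and 14.7-fold below after 60 min. Only replicate A was analysed, with 1 library for each time, so these differences have no replicate check here.

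At 20 min 0 members were past a 1.5-fold decrease, where 27.2% of mRNAs were. At 30 and 60 min 5 of 5 were, beside 25.7% and 21.1%. The mean tail changed at 30 min by -4.46 As for RPP0, -6.43 for RPP1A, -2.97 for RPP1B, -3.58 for RPP2A and -6.43 for RPP2B, so that RPP1A and RPP2B passed a 5 As threshold that 13.9% of mRNAs passed. The order was another at 60 min, with -6.55 As for RPP0, -0.54 for RPP1A, -5.36 for RPP1B, -2.81 for RPP2A and -5.78 for RPP2B. All 5 tails were longer at 8 min than at 0 min, by 0.615 to 2.77 As, and that library also held 35097 ENO2 reads against 185107 to 307543 in the other 7. What these have to do with each other was not tested. Heat shock genes were higher in thiolutin too, with HSP104 at 62.2 RPM at 0 min and 1719 RPM at 20 min.

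**Figure D4:**
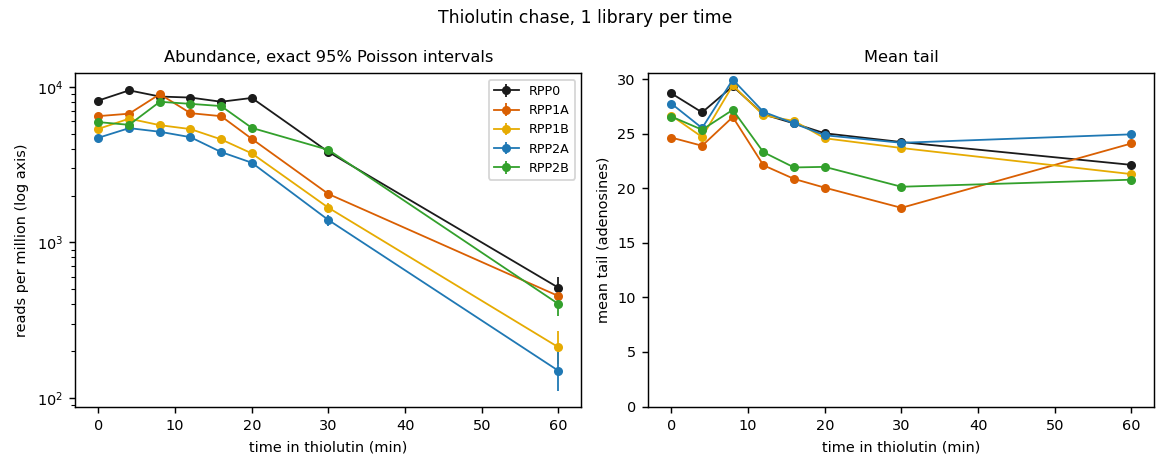
RPM on a log axis with exact 95% Poisson intervals (left) and mean tail in As (right) of the 5 stalk genes against time in thiolutin in min, 1 library for each time. RPP0, RPP1A and RPP2B stayed near or above their starting levels to 16 min and all 5 genes were 14.3-fold to 31.4-fold below them at 60 min.

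In the Dcp2-AID pool the members were lower than in WT, like the other ribosomal protein mRNAs and unlike the median mRNA. Dcp2 removes the cap and Xrn1 then degrades the body from the 5′ end. In the Dcp2-AID pool the ratio to WT was 0.638 for RPP0, 0.651 for RPP1A, 0.655 for RPP1B, 0.592 for RPP2A and 0.622 for RPP2B, so 5 of 5 were past a 1.5-fold decrease that 7.23% of 4899 mRNAs passed. The median mRNA was at 1.27 and the median of the other ribosomal protein mRNAs at 0.659. Mean tails of the members moved by -0.92 to 0.12 As, with 0 past 5 As shorter, where 52.9% of mRNAs were and the median change was -5.30 As, and -0.79 As over the other ribosomal protein mRNAs. In the Xrn1-AID pool the ratios were 1.20, 1.57, 1.31, 1.18 and 1.55, and RPP1A and RPP2B were past a 1.5-fold increase that 25% of mRNAs passed, with 1.08 for the median mRNA and 1.49 for the median of the other ribosomal protein mRNAs. Their tails moved by -1.54 to -0.46 As, 0 past 5 As shorter, where 31.1% of mRNAs were and the median of the other ribosomal protein mRNAs was -1.13 As. Pools have no replicate spread, so these are differences between pools and not tests of the strains.

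Of the deadenylases, Ccr4 and Pop2 are subunits of the Ccr4-Not complex and Pan2 acts with Pan3. In the pan2 deletion pool mean tails of the stalk mRNAs were longer by 12.0 As for RPP0, 8.82 for RPP1A, 11.6 for RPP1B, 11.1 for RPP2A and 10.8 for RPP2B, 5 of 5 past 5 As, where 60.1% of mRNAs were. Each member exceeded the median of all mRNAs, 6.38 As, and of the other ribosomal protein mRNAs, 7.35 As. In the ccr4 deletion pool they were longer by 2.37 to 3.53 As, 0 past 5 As, where 64% of mRNAs were and the other ribosomal protein mRNAs had a median of 4.03 As. In the pop2 deletion library they moved by -0.18 to 2.23 As, 0 past 5 As, where 42.5% of mRNAs were and the other ribosomal protein mRNAs had a median of 3.32 As. In abundance, RPP0 stood at 1.69 times WT in the pan2 deletion pool, the only member past 1.5-fold there beside 6.71% of mRNAs. The WT table lists RPP0, RPP1A and RPP1B on a second annotation line too, with 18.8%, 13.6% and 16.4% of their reads. With both lines summed the pan2 ratios of these genes were 1.37, 0.92 and 0.97, against 1.69, 1.07 and 1.16 on the named line. The ratios were 1.01 to 1.34 in the ccr4 deletion, and with both lines summed those of RPP0, RPP1A and RPP1B turned to 0.96, 0.92 and 0.86. In the pop2 deletion they were 0.71 to 0.84, 0 past 1.5-fold, where 54.3% of mRNAs were past a 1.5-fold increase and the median of the other ribosomal protein mRNAs was 0.825. With ENO2 kept in the totals the pop2 ratios turned to 1.10 to 1.30 and the median of the other ribosomal protein mRNAs to 1.28, since the undigested WT library held 717865 ENO2 reads and the pop2 library 4250. The study's strain list gives another parent strain for pan2 and ccr4 deletions than the labels do, and a WT matched to it. Which WT the pool holds is not settled, so strain background and deletion cannot be told apart here.

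Pab1, which coats the pA-tail, was depleted for 1 and 2 h. The genotype label of the 0 h control reads Pab1-AID but its title calls it WT, so depletion and strain may not be separable in these values. Mean tails of the members were longer by 2.54 to 4.96 As at 1 h, 0 past 5 As, where 84.6% of mRNAs were and the other ribosomal protein mRNAs had a median of 4.41 As. At 2 h they were longer by 5.08 As for RPP0, 4.42 for RPP1A, 5.99 for RPP1B, 7.74 for RPP2A and 6.52 for RPP2B, 4 past 5 As beside 88% of mRNAs, with a median of 11.6 As over all mRNAs and 6.85 over the other ribosomal protein mRNAs. Abundance ratios stayed between 0.93 and 1.22. After digestion of WT RNA with Xrn1, which degrades uncapped RNA, the ratios to undigested RNA were 1.10 to 1.28 and tails moved by -1.37 to -0.03 As, with 0 members past either threshold, where 8.97% of mRNAs were higher and 11.6% had shorter tails. With ENO2 kept, all 5 were past 1.5-fold higher, at 1.68 to 1.96 times, where 50.8% of mRNAs were, since digested RNA held 18826 ENO2 reads against 717865 in undigested RNA.

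Heat and the export block were combined in the Mex67-AA pool at 37 °C with 16 min of rapamycin. Against the summed controls A and B of the chase, RPP0 was at 1.80 times, RPP1A at 1.62, RPP1B at 1.17, RPP2A at 1.57 and RPP2B at 1.44. RPP0, RPP1A and RPP2A were past 1.5-fold, as were 5.66% of mRNAs. The median mRNA was at 0.433 and the median of the other ribosomal protein mRNAs at 1.05. Mean tails differed by -10.04 As for RPP0, -7.04 for RPP1A, -8.28 for RPP1B, -9.32 for RPP2A and -6.87 for RPP2B, 5 of 5 past 5 As beside 67.3% of mRNAs. The other ribosomal protein mRNAs had a median of -9.23 As, within the range of the members. Against the single 25 °C library of replicate A at 16 min, abundance ratios were 0.90 to 1.30 and tails differed by -4.66 to -2.63 As, with 0 members past 5 As, where 18.6% of mRNAs were. The medians of the other ribosomal protein mRNAs were 0.929 times and -3.44 As in that comparison.

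**Figure D5:**
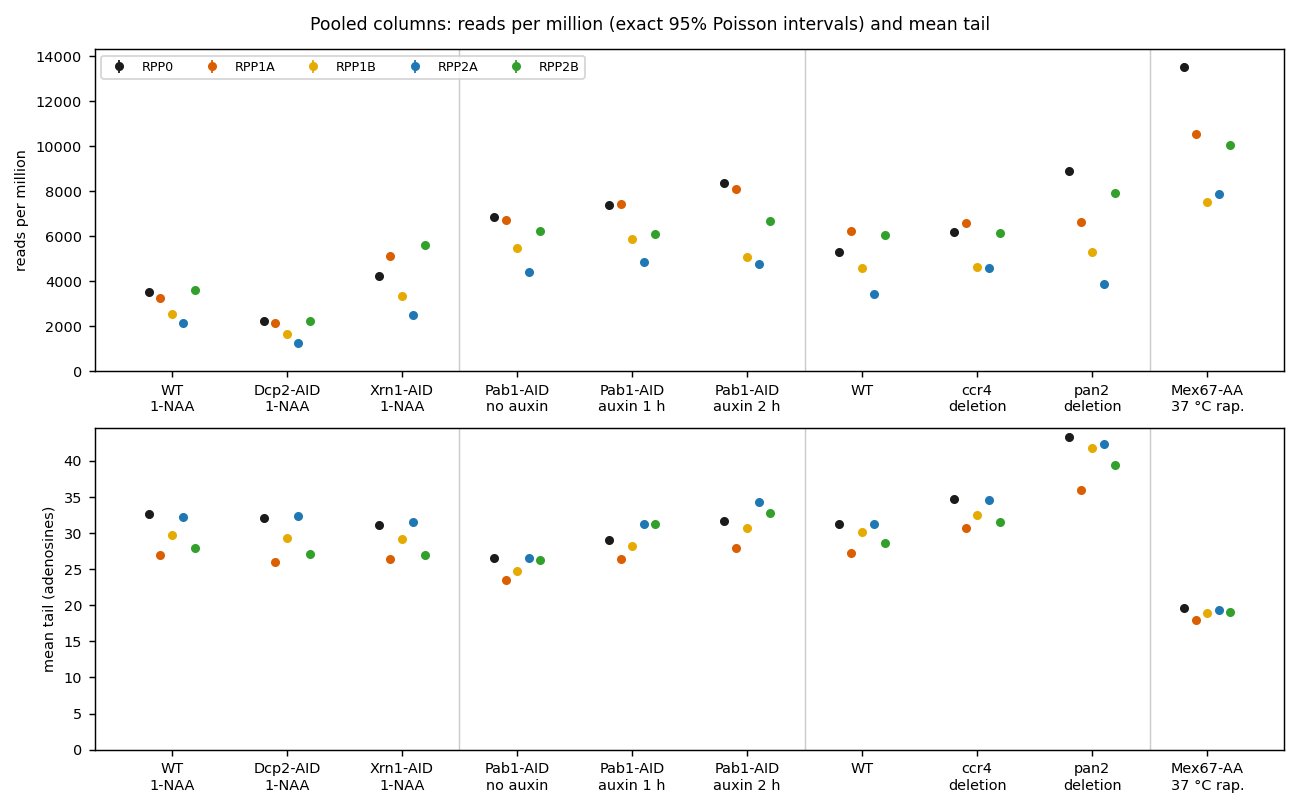
RPM with exact 95% Poisson intervals (upper panel) and mean tail in As (lower panel) of the 5 stalk genes in the 10 pools, with grey lines between sets of pools that have different controls and intervals smaller than the points. RPP0 tails ran from 19.7 As in the Mex67-AA pool at 37 °C to 43.3 As in the pan2 deletion pool.

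Across all conditions the 5 genes together took from 0.173% of reads, in thiolutin at 60 min, to 5.82%, in Mex67-AA replicate C at 30 min. The next highest were the other last Mex67-AA libraries and the 37 °C pool, at 4.82% to 5.01%. The 3 Mex67-AA controls held 3.21% to 3.52%, within which the heat stress 0 min libraries (3.16% to 3.46%) largely lay. Heat stress libraries at 18 to 20 min held 1.13% to 1.68%, overlapping those at 14 to 16 min with 1.21% to 1.75%. The Dcp2-AID pool held 0.957% and its WT pool 1.51%, below every other control, so levels were read only against the control of the same table.

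The base of the stalk on the ribosome includes uL11, encoded by RPL12A and RPL12B, whose coding sequences share 91.6% of bases so that reads may be split between them. RPL12A changed by -0.49 on the log2 scale at 20 to 30 min of the Mex67-AA chase (edgeR adjusted p = 0.00279) and RPL12B by -0.02 (adjusted p = 0.862). In heat stress at 14 to 16 min both fell, with changes of -2.88 for RPL12A and -1.45 for RPL12B. At 18 to 20 min their mean tails were longer than at 0 min, by 12.2 As for RPL12A and 5.21 for RPL12B (limma adjusted p = 0.00601 and 0.0250). MRT4, which encodes the assembly factor that RPP0 protein replaces in maturing ribosomes, did not pass the count filter. Of 9 GTPases and partners that work at the stalk, 4 rose and 3 fell at 12 to 16 min of Mex67 depletion, and 1 rose and 6 fell at 14 to 16 min of heat. Over all features 2.94% rose and 65.1% fell in the first window, and 44.5% rose and 15.5% fell in the second. Of the Gcn2 branch, the kinase gene GCN2 and its activator gene GCN1 were tested. There 0 rose and 1 fell in the Mex67-AA window and 1 rose and 0 fell in heat. Of 4 subunits of casein kinase 2, which phosphorylates P proteins, 0 rose and 3 fell in the Mex67-AA window and 0 changed in heat, where 0 had an unadjusted p under 0.05.

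Among the mRNAs most like the mean of the 5 members over the 35 libraries of both chases were RPL30 (Pearson's r = 0.989), RPL1A (0.988), RPL8B (0.985) and YBL072C, a ribosomal protein locus listed together with YBL071C-B (0.983), among 736 mRNAs with enough reads. Among the members themselves r ran from 0.892 for RPP0 and RPP1B to 0.991 for RPP1A and RPP2B. These values describe log2 RPM centred on each replicate's control, and libraries of a chase share that control and their total.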

How the data were processed

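Samples of pA+ RNA were sequenced on nanopores and mapped by the authors to a custom transcriptome with Minimap2 2.17, with SAMtools 1.9 and sacCer3 also named in the submitters' processing notes. Reads on the reverse strand were removed, and tails were estimated with Nanopolish by the authors. The deposited tables hold counts of reads per transcript and the mean, median and quantiles of tail length in adenosines, a unit with no name of its own, for each library or for a pool of replicates. Of 65 libraries or pools in the tables, 57 were used and 8 were not used here, because their names could not be tied to 1 sample or group. Among these were a single column for thiolutin replicate B and a column for the pan2 ccr4 double deletion.

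Groups came from the labels. Counts were tested in edgeR 4.0.16 (quasi-likelihood, R 4.3.3) with library totals without ENO2 as the offset, for features with at least 10 reads in at least 3 libraries of a chase. Mean tails from at least 10 reads were tested in limma 3.58.1 with trend. Both models held the replicate letter and the time window, with Benjamini-Hochberg adjusted p under 0.05 as the threshold. The block was kept because the study computed its constants within a replicate. The labels call the replicates biological, and each library entered the models as its own sample. The Mex67-AA window of 12 to 16 min held 3 libraries of replicate A, 2 of B and 1 of C. The p-values therefore measure the spread between libraries, among them libraries of the same replicate taken minutes apart. Among the 0 min libraries of each chase none were duplicates (chi-square per degree of freedom 1.50 to 27.7). Later libraries were not compared in this way.

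Pools and thiolutin libraries had no replicates. There a 1.5-fold change of RPM or 5 adenosines counted as past the threshold, and exact 95% intervals cover counting error only. The fitting code was tested on simulated data. RefSeq R64 matched the tables' coordinates for 89.9% of 5422 mRNAs with the coding sequence inside the table's span on the same strand. The genes named were the 5 members, uL11 and MRT4 genes, heat shock and targeted genes, and the 5 mRNAs with the highest correlation to the members, of which 1 is not reported here. The members and lists were chosen with earlier results of these data known. Alternatives were other scalings, DESeq2 1.42.0, filters, ENO2 kept, mRNAs only, no block, median tails, read weights and leaving out replicates.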

Additional observations from a re-analysis of the deposited data

Results flagged for a closer look

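RPP0 in the Mex67-AA replicate C library at 16 min stood at 14727 RPM, apart from the other 5 libraries of the 12 to 16 min window (10052 to 10898 RPM). RPP1B in the same library had a mean tail of 21.3 As, below the others, which reached 24.4 As. These were 2 values in 20 groups examined for a sample far from the rest. Both came from the only replicate C library of that window, and the groups shared libraries. The rate of about 1 in 20 that chance gives for independent samples therefore does not apply directly. Replicate C was the only Mex67-AA replicate with 0 ENO2 reads in its tables, and what this has to do with the values was not tested.

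The heat stress and Mex67-AA changes differed for the abundance of all 5 members, by -2.10 for RPP0, -1.36 for RPP1A, -1.44 for RPP1B, -1.27 for RPP2A and -1.29 for RPP2B on the log2 scale, and for the mean tail of RPP1B, by -3.82 As. The tests stand in the report.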

How the results depend on the processing

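The members fell in heat stress at 14 to 16 and 18 to 20 min, and the heat change was lower than the Mex67-AA change, for 5 of 5 under every scaling, tool, filter, block and left-out replicate tried. The Mex67-AA rise at 12 to 16 min, 5 of 5, was called for 3 with ENO2 kept (which replicate C lacks), 2 without the replicate block, and 1 to 5 when a replicate was left out, and the rise at 20 to 30 min for 4 to 5. Mex67-AA shortening was called for 0 to 4 at 12 to 16 min and 3 to 5 at 20 to 30 min. Heat stress shortening was called for 0 to 5 at 6 to 8 min (2 with median tails) and 0 to 3 at 14 to 16 min, and the later lengthening for 0 to 5 (1 with median tails). From 0 to 18 to 20 min 0 members were shorter by the mean, 4 by the median, with RPP1A at -2.67, RPP1B at -4.0 and RPP2B at -4.33 As turning negative, and 1 with weights by reads. The RPP1B tail difference between chases was called for 0 members with at least 50 reads and for 0 to 1 when a replicate was left out. Without the replicate block, the rise at 12 to 16 min of the Mex67-AA chase was called for 2 and the shortening there for 4. No other count of members changed in that setting. Same-lettered libraries had a mean r of 0.448 in the Mex67-AA chase (lowest pair -0.0038) and 0.116 in heat stress (lowest -0.35). Other pairs had a mean r of -0.179 and -0.0547. Same-lettered libraries were thus more alike on average, more clearly in the Mex67-AA chase. This did not hold for every pair, so a pairing by letter is not established for each library.

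The mean decay constant of the 5 members was 0.0434 per min in the Mex67-AA chase, -0.0173 with all constants kept, 0.0746 with each time against the control only, and 0.0128 to 0.0569 when a replicate was left out, lowest without replicate C. In heat stress it was 0.0541, and 0.0357 against the control only. In thiolutin it was 0.0423, 0.0325 with all kept and 0.0248 against the control only. In the pools, 5 members instead of 0 passed 1.5-fold after Xrn1 digestion with ENO2 kept, in either table of that RNA, 0 instead of 1 in the pan2 deletion with both annotation lines summed (chosen after seeing the data), 1 instead of 0 was longer in the ccr4 deletion and 1 instead of 0 shorter at 37 °C against 25 °C with median tails.

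Counts over all features moved more. Higher features at 12 to 16 min of Mex67-AA numbered 125, against 900 (TMM), 828 (RLE), 839 (DESeq2) and 56 (no replicate block), and at 20 to 30 min 197 against 918, 936 and 931. Lower features numbered 452 against 757, 749 and 712 in heat at 18 to 20 min, and 406 against 973, 785 and 795 between the chases. From 14 to 16 to 18 to 20 min 0 were lower, 5 by DESeq2 and 57 with no filter. Shorter tails in Mex67-AA numbered 1326 and 1029, and 692 and 602 with at least 50 reads. In heat at 14 to 16 min they numbered 58, against 98 (median) and 107 (weights), from 0 to 18 to 20 min 6 against 33 and 10, and between the chases 11 against 17 (median) and 0 (50 reads). Longer tails late in heat numbered 167 against 108 (median). The cause of these shifts was not tested.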
